A study of Mus musculus with 11 samples.

Results

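Transcripts of macrophages and other leukocytes were examined in cultures of mouse mesenchymal stem cells (MSCs), the stromal cells of bone that can form bone, cartilage and fat. The 37 genes were taken as a list of symbols, and all 37 were found among the 28222 genes of the count table. They comprise general leukocyte genes, genes of the mononuclear phagocyte lineage and the MHC class II genes of antigen-presenting cells. The rule that lists them uses no measured value, although the list was drawn up with earlier results of these data known. The study sequenced polyadenylated RNA of MSCs from young mice, 3 to 5 months of age, and from old mice, 18 to 22 months of age, in 3 batches, as the labels call them. There were 4 libraries of young mice in batch A, 2 of young and 2 of old mice in batch B, and 3 of old mice in batch C. All 11 cultures were kept at 2% oxygen in αMEM with serum and antibiotics, and the labels give no genotype, strain or treatment. Per the methods of the study, which describe an oxygen comparison in C57BL/6N mice and were assumed to hold here, MSCs grown out of limb bone were sorted without the blood cell markers CD45 and Ter-119 and with Sca-1 and CD140a. The labels do not say whether the libraries of a group came from separate animals, so that p-values measure the spread between these libraries, which may be technical.

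Macrophages arise from blood monocytes and from embryonic precursors and live in most tissues, bone and bone marrow included, where they engulf dead cells and debris. Their survival depends on signals through the receptor encoded by Csf1r, and their identity on the transcription factor PU.1, the product of Spi1. Their surface carries Fc receptors, which bind antibody and signal through the small adaptor Fcer1g, and Tyrobp is another small adaptor. The NADPH oxidase makes reactive oxygen against ingested microbes, and C1q starts the classical complement pathway. CD45, the product of Ptprc and the marker gated against in the sort, is a phosphatase on nearly all white blood cells.

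The libraries held between 11969336 and 20315934 counts, and 3 counts, taken as the smallest level detected, corresponded to 0.156 to 0.253 CPM (counts per 1000000 counts of the library). The members together took between 0.0322% of the counts of a library (95% Wilson interval 0.0312% to 0.0332%) and 0.229% (0.227% to 0.232%), where the intervals cover counting error only. Levels are given as CPM, scaled with TMM factors that make libraries of different composition comparable. Of the 37 members, 36 had counts in every library. H2-Aa, an MHC class II chain, had 5 counts in all and at most 2 in any library, which is under the smallest level detected.

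The summed level of the members differed several-fold between the groups and, within batches A and B, between the libraries of a group. In batch A young, the members summed to 1139, 1655, 2539 and 1967 CPM. In batch B, they summed to 1332 and 658 CPM in the young libraries and to 1890 and 1361 CPM in the old libraries. In batch C old, the sums were 286, 327 and 279.5 CPM, below those of all libraries of batches A and B. The group means were 1825 ± 586 (SD, n = 4) in batch A young, 995 ± 476 (n = 2) in batch B young, 1625 ± 374 (n = 2) in batch B old and 298 ± 25.9 (n = 3) in batch C old. In bulk RNA, fewer cells of a type and less RNA per cell cannot be told apart.

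**Figure D1:**
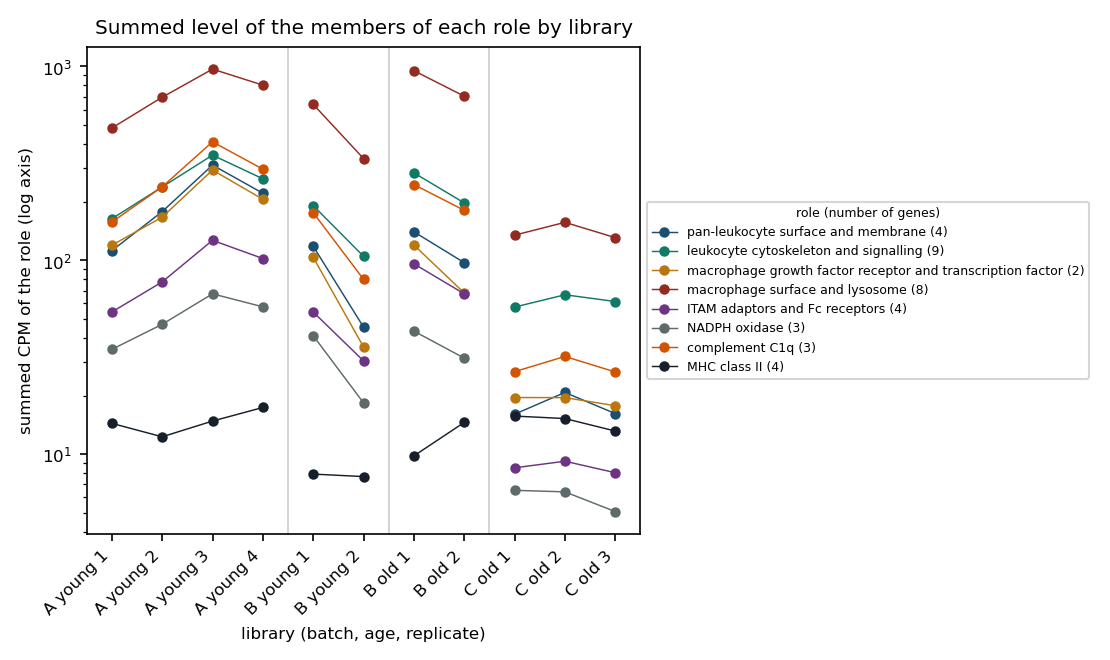
Summed CPM (log axis) of the members of each of 8 roles in each of the 11 libraries, with points joined within a group. Macrophage surface and lysosome genes lie highest in every library, from 131 to 969 CPM, and in batch C old all roles but MHC class II lie below their levels in batches A and B.

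Per length of transcript, which allows genes to be compared, the most abundant members in batch A young were genes of macrophages. Lyz2, the secreted lysozyme of macrophages and granulocytes, stood at 256 CPM per kilobase of its longest transcript. The 3 chains of C1q followed, with C1qb at 91.7, C1qa at 80.2 and C1qc at 76.7 CPM per kilobase. The lysosomal membrane protein gene Laptm5 stood at 63.7 and Tyrobp at 62.4, and Fcer1g, Csf1r, Adgre1 (F4/80) and Cd68 followed at 42.9, 37.6, 34.5 and 34.3 CPM per kilobase. At the lower end, Ptprc stood at 2.42 CPM per kilobase, Cd74, the invariant chain of MHC class II, at 1.13 and H2-Eb1 at 0.502. H2-Ab1 was the most abundant MHC class II gene, with 10.1 CPM per kilobase. With the union of all exons in place of the longest transcript, C1qc stood at 47.8, below Tyrobp, H2-Ab1 at 4.79 and Ptprc at 0.757 CPM per kilobase, the latter then below Cd74 at 0.948.

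The macrophage regulators were present in each library. Csf1r had 107, 153, 263 and 185 CPM in batch A young, 91.7 and 31.1 CPM in batch B young, 102 and 57.5 CPM in batch B old, and 17.8, 17.5 and 15.7 CPM in batch C old. All libraries of batch A young lay above all others, all of batch C old below all others, and the age groups of batch B overlapped. Spi1 had 12.6, 14.4, 30 and 21.5 CPM in batch A young, 12.1 and 4.69 CPM in batch B young, 18.4 and 10.4 CPM in batch B old, and 1.82, 2.09 and 2.10 CPM in batch C old.

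Ptprc, the gene of the marker gated against, was detected in all libraries. It had 9.31, 14.9, 17.8 and 13.4 CPM in batch A young, 15.6 and 7.49 CPM in batch B young, 22.2 and 17.6 CPM in batch B old, and 3.47, 5.10 and 3.55 CPM in batch C old. Batch C old lay below the other groups, batch B old lay above batch B young, and batches A and B overlapped. The genes of the markers gated for were far more abundant. Ly6a (Sca-1) had between 270.1 and 778 CPM and Pdgfra (CD140a) between 109 and 289 CPM over the 11 libraries.

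Among the surface and lysosome genes, Lyz2 had 243, 326, 416 and 363 CPM in batch A young, 340.5 and 208 CPM in batch B young, 582 and 419.5 CPM in batch B old, and 64.5, 73.9 and 61.5 CPM in batch C old. Batch B old held the highest values and batch C old the lowest, and the young libraries of batches A and B overlapped. Lyz2 has a near-identical neighbour, Lyz1, and Fcgr3 is alike to other Fc receptor genes, so that reads could have been split between these copies. C1qb had 58.7, 84.7, 150 and 106 CPM in batch A young, 72.3 and 29.8 CPM in batch B young, 95.9 and 71.1 CPM in batch B old, and 11.1, 12.4 and 11.6 CPM in batch C old. The ratio of C1qa to C1qb, whose products are built into the same complex, stayed between 0.65 and 0.89 over all libraries, and that of C1qc to C1qb between 0.644 and 1.02. The 3 genes lie side by side on the minus strand of chromosome 4 (GRCm38), with C1qb at chr4:136880129-136886187, C1qc at chr4:136889804-136893065 and C1qa at chr4:136895917-136898803.

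Other members were scarce. Rac2, a GTPase of blood cells that activates the NADPH oxidase, had 5.98 to 17.3 CPM in batch A young and 0.353 to 1.23 CPM in batch C old. Was, the actin regulator mutated in Wiskott-Aldrich syndrome, had 2.77 to 7.68 CPM and 0.524 to 0.942 CPM in the same groups, and Fcgr1, the high-affinity receptor for IgG, 2.49 to 6.11 CPM and 0.294 to 0.654 CPM. Of the 37 genes, 27 had a mean over 10 CPM in batch A young, against 10 in batch C old, where 8 had a mean under 1 CPM. Exon bases of 9 members are shared with another annotated gene. Cd52, Coro1a, Arhgdib, Plek, Lcp1, Lcp2, Csf1r and Ncf1 overlap a gene on the opposite strand, and Cd74 holds a microRNA gene on its own strand. The sources used here do not state whether strand was used in counting, so that reads of these overlaps could not be assigned to either gene.

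Promoters were searched for short motifs of factors known to act on these genes, since most members varied together while H2-Ab1 and H2-Eb1 did not, as described further on. PU.1 binds sites with the letters GAGGAAGT, and MHC class II promoters carry a Y box with the letters CTGATTGG. The 250 bases before each RefSeq transcript start were searched on both strands, with the reverse complements ACTTCCTC and CCAATCAG. Of the members, 26 matched with 33 such windows. The PU.1 letters were found in 2 of these windows (6.06%), those of C1qc and Vav1, against 2.44% of all 32851 windows. The Y box was found in 2 windows (6.06%), those of H2-Aa and H2-Eb1, against 3.83% of all windows. The window of Vav1, a signalling protein of blood cells, is shown as an example of the first motif, and those of H2-Eb1 and H2-Aa are shown for the second. They are given 5′ to 3′ in the direction of transcription with the motif in capitals (RefSeq, GRCm38.p6), for Vav1 at chr17:57278850-57279099 on the plus strand, for H2-Eb1 at chr17:34305617-34305866 on the plus strand and for H2-Aa at chr17:34287824-34288073 on the minus strand.
Vav1: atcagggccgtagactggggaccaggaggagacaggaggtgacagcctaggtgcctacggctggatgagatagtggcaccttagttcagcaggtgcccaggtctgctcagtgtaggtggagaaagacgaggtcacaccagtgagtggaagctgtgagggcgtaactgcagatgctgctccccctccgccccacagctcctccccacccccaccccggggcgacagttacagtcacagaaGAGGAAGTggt
H2-Eb1: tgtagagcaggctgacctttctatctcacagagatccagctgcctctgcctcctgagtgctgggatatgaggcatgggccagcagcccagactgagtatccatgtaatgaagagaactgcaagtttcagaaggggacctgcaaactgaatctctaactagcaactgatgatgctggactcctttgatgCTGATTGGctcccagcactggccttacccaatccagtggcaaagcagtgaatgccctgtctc
H2-Aa: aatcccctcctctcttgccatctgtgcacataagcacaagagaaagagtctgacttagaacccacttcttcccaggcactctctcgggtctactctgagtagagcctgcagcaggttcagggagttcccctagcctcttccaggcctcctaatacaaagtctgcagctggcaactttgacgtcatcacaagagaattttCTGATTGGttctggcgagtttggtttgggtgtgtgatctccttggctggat
The motif starts 11 bases before the transcript start in Vav1, 62 bases before it in H2-Eb1 and 51 bases before it in H2-Aa. A match of letters is a description of the sequence and not of a bound factor.

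The question of the age comparison was whether MSCs of old mice differ from those of young mice, and batch B alone holds both ages. Every one of the 36 members tested had a positive log2 difference of old minus young in batch B, but only Ms4a7 passed the test. Ms4a7, a membrane protein gene of tissue macrophages, had 6.30 and 4.08 CPM in batch B young, against 17.4 and 13.2 CPM in batch B old. The groups did not overlap, and the old libraries of batch B lay above all other libraries, with 4.71, 6.92, 9.99 and 7.47 CPM in batch A young and 0.471, 1.05 and 0.870 CPM in batch C old. Ms4a7 rose by 1.54 ± 0.30 (log2, SE) in the edgeR quasi-likelihood test over all 11 libraries with batch as a covariate (adjusted p = 0.0134). Without replicate 1 of batch B old, the difference was 1.34 with an adjusted p of 0.146 by edgeR.

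Over the members, the median log2 difference with age was 0.69, against 0.0044 over the 16132 genes tested, and the values ran from 0.20 for Cybb to 1.54 for Ms4a7. With an adjusted p-value under 0.05 (edgeR), 1 of 36 members was higher, where 0.694% of all genes tested were higher, and 0 were lower, where 1.54% of all genes were lower. At an unadjusted p-value under 0.05, 14 of the 36 members passed, all higher, against 16.1% of all genes in either direction. DESeq2 called 3 members higher and 0 lower, where 230 and 410 of all genes were. For limma-trend it was 1 and 0, where 111 and 259 of all genes were. In 15 members both old libraries of batch B lay above both young ones, against 19.2% of all genes. The median rested on the young libraries of batch B, which differed from each other: it was 0.26 without replicate 2 and 1.41 without replicate 1. Without replicate 1 of batch B old, the median was 0.49. Without replicate 1 of batch A young, 4 members were called higher, where 226 of 16014 genes were.

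Lyz2 and Cd53 came nearest to the threshold after Ms4a7. Lyz2 was higher in both old than in both young libraries of batch B, with a log2 difference of 0.87 ± 0.23 (SE, edgeR adjusted p = 0.0699). Cd53, a tetraspanin gene of leukocytes, had 12.9 and 6.74 CPM in batch B young, against 26.4 and 17.6 CPM in batch B old, a log2 difference of 1.15 ± 0.33 (edgeR adjusted p = 0.0849). Lyz2 passed the threshold with DESeq2, with scaling by total counts, without a filter on low counts, and without replicate 1 of batch A young or of batch B young, and Cd53 with DESeq2, without the filter and without replicate 1 of batch A young. The C1q genes had log2 differences of 0.82 ± 0.34 (C1qa), 0.70 ± 0.36 (C1qb) and 0.67 ± 0.36 (C1qc), and none of them passed (edgeR adjusted p = 0.243, 0.349 and 0.369). For Csf1r the difference was 0.37 ± 0.40 and for Cybb, the catalytic subunit of the NADPH oxidase, 0.20 ± 0.31. Both were negative without replicate 2 of batch B young, at -0.21 for Csf1r and -0.21 for Cybb, and that of Csf1r was -0.09 without replicate 1 of batch B old. A fit of the 5 old against the 6 young libraries left out batch. It gave a median of -0.95 over the members, and 0 members passed in it in either direction, where 1371 genes were higher and 1270 lower.

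**Figure D2:**
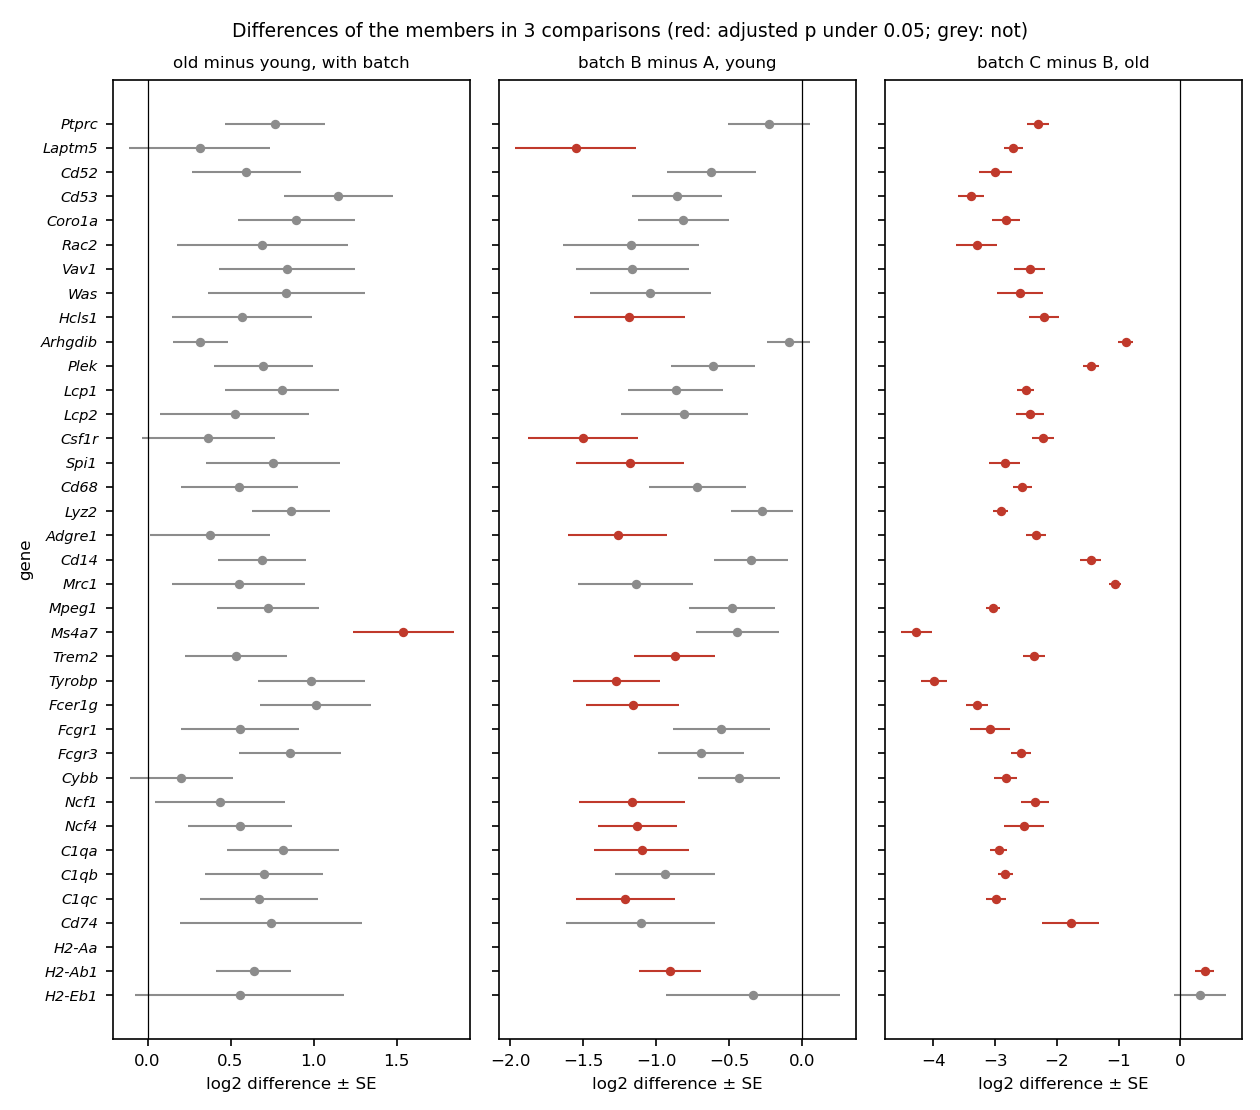
Log2 difference ± SE (edgeR) of each member in the 3 comparisons, old minus young with batch as a covariate, batch B minus batch A in young libraries, and batch C minus batch B in old libraries, with red points for an adjusted p-value under 0.05. With age 1 member is red, between the young batches 13, and between the old batches 35, of which 34 lie below 0; H2-Aa was not tested.

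Batch B young was then compared with batch A young, in which both groups are 3 to 5 months of age. The same batch B young libraries enter the age comparison, so that the differences of both comparisons are not independent. Of the 36 members tested, 13 fell in batch B (edgeR, adjusted p-value under 0.05), where 8.71% of all genes were lower, and 0 rose, where 9.39% of all genes were higher. All 36 log2 differences were negative, with a median of -0.89, against 0.0093 over the 14840 genes tested. At an unadjusted p-value under 0.05, 22 members passed, against 33.9% of all genes in either direction.

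Laptm5 and Csf1r had the largest decreases. Laptm5 had 86.9, 138, 258 and 180.1 CPM in batch A young and 83.1 and 27.9 CPM in batch B young. The groups did not overlap, but replicate 1 of both lay close together, and the log2 difference was -1.55 ± 0.42 (SE, edgeR adjusted p = 0.0231). For Csf1r it was -1.50 ± 0.38 (edgeR adjusted p = 0.0182). Tyrobp had 22.2, 30.5, 51.7 and 44.7 CPM in batch A young and 18.6 and 11.5 CPM in batch B young, and fell by 1.27 ± 0.30 (edgeR adjusted p = 0.0134). Adgre1 (-1.26 ± 0.34), C1qc (-1.21 ± 0.34), Spi1 (-1.18 ± 0.37), Fcer1g (-1.16 ± 0.32), Ncf4 (-1.13 ± 0.27), C1qa (-1.10 ± 0.32) and H2-Ab1 (-0.91 ± 0.21) also fell, as did Hcls1, Trem2 and Ncf1.

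By role, both regulators fell, as did 2 of 3 C1q genes, 2 of 4 adaptors and Fc receptors, 2 of 3 NADPH oxidase subunits, 2 of 8 surface and lysosome genes, 1 of 4 membrane genes of leukocytes in general, 1 of 9 cytoskeleton and signalling genes and 1 of 3 MHC class II genes tested. Lyz2, Ptprc and Arhgdib, a regulator of small GTPases, had the smallest differences, at -0.27 ± 0.21, -0.22 ± 0.28 and -0.09 ± 0.15, and did not pass. In 10 members, both batch B young libraries lay below all 4 of batch A young, against 19.7% of all genes. The result rested on single libraries. The median was -0.48 without replicate 2 of batch B young and -1.56 without replicate 1 of batch B young. Leaving out replicate 1, 3 or 4 of batch A young gave 24, 4 and 8 members. Of all genes, 1470, 629 and 847 were then lower, against 1293 with all libraries.

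Batch C old and batch B old are both 18 to 22 months of age, and here most members differed. Of 36 members tested, 34 fell in batch C (edgeR, adjusted p-value under 0.05), where 32.6% of all genes were lower, and 1 rose, H2-Ab1, where 32.1% of all genes were higher. The median log2 difference of the members was -2.57, against 0.0227 over the 15651 genes tested. Scaling by total counts in place of TMM moved the median of all genes by 0.2155 in this comparison, that of the members was then -2.38, and the same numbers of members passed. The mean in batch B old was 5.94 times that of batch C old in the median member, against 0.985 in the median gene.

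Ms4a7 and Tyrobp had the largest decreases, of -4.27 ± 0.25 (edgeR adjusted p = 4.3e-08) and -3.99 ± 0.22 (adjusted p = 2.4e-08). Tyrobp had 36.6 and 23.4 CPM in batch B old and 1.82, 2.23 and 1.59 CPM in batch C old. The values in batch C lay above the smallest level detected and far below those of batch B. The log2 difference was -3.30 ± 0.18 for Fcer1g, the other adaptor, and -2.91 ± 0.12 for Lyz2. For Mpeg1, a pore-forming protein of phagocytes, it was -3.04 ± 0.11. The C1q genes also fell, with -2.94 ± 0.14 (C1qa), -2.84 ± 0.12 (C1qb) and -2.99 ± 0.16 (C1qc), as did Spi1 (-2.85 ± 0.25), Cybb (-2.83 ± 0.18), Ptprc (-2.30 ± 0.18) and Csf1r (-2.23 ± 0.19).

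Some members fell less. Mrc1, the mannose receptor of tissue macrophages, had 71.8 and 63.6 CPM in batch B old and 30.3, 37.3 and 29.9 CPM in batch C old, and fell by 1.06 ± 0.10. Arhgdib had 48.2 and 34.1 CPM in batch B old and 21.6, 23.1 and 22.3 CPM in batch C old, and fell by 0.89 ± 0.13. Neither pair of groups overlapped, and both genes passed (edgeR adjusted p = 1.8e-06 and 6.3e-05). Plek, a substrate of protein kinase C in platelets and leukocytes, had a log2 difference of -1.44 ± 0.13, and Cd14, the coreceptor for bacterial lipopolysaccharide, one of -1.45 ± 0.17. Cd74 fell by 1.78 ± 0.46, but its levels were low, with 0.875 and 1.54 CPM in batch B old and 0.412, 0.327 and 0.290 CPM in batch C old, and without replicate 2 of batch B old it did not pass (edgeR adjusted p = 0.066).

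H2-Ab1 and H2-Eb1, chains of MHC class II, did not follow. H2-Ab1 had 8.42 and 11.7 CPM in batch B old and 14, 14 and 11.8 CPM in batch C old. The groups lay next to each other without overlap, and H2-Ab1 rose by 0.40 ± 0.15 (edgeR adjusted p = 0.0393). It did not pass without replicate 1 of batch B old (0.18, adjusted p = 0.321), without replicate 1 of batch C old (0.37, adjusted p = 0.117), without replicate 2 of batch C old (0.37, adjusted p = 0.0997) or with DESeq2 (0.39, adjusted p = 0.0812). H2-Eb1 had 0.539 and 1.34 CPM in batch B old and 1.35, 0.981 and 1.16 CPM in batch C old, and its difference of 0.31 ± 0.42 did not pass (edgeR adjusted p = 0.536).

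Over all groups, 31 members had lower values in all 3 libraries of batch C old than in all 8 libraries of batches A and B, against 22% of all genes. The 6 others were Plek, Mrc1, Cd74, H2-Aa, H2-Ab1 and H2-Eb1. Batch C holds no young library, so that batch C and its age group cannot be told apart within it, and the comparison of batch C old with batch A young joins age and batch. In the median member the mean of batch A young was 7.19 times that of batch C old, against 1.02 in the median gene.

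**Figure D3:**
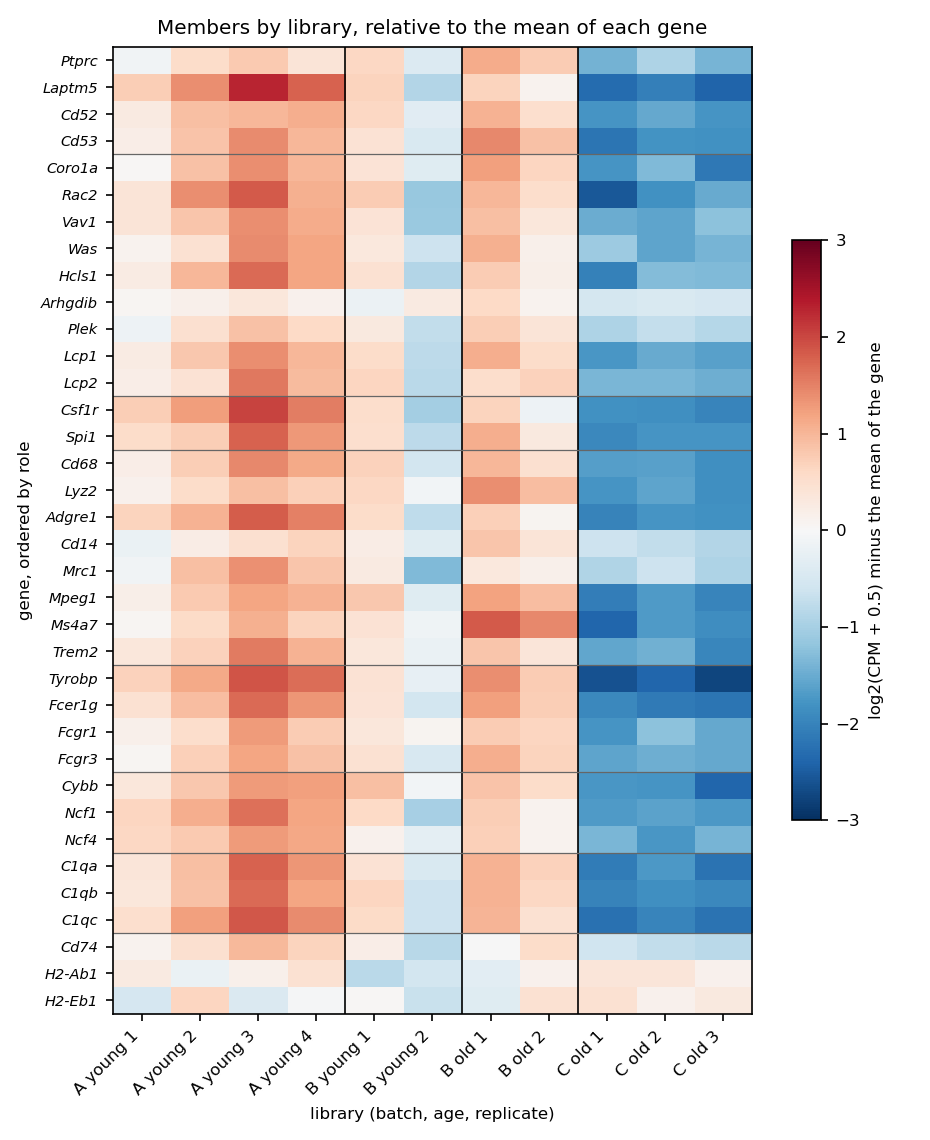
Level of 36 members in each of the 11 libraries, as log2(CPM + 0.5) minus the mean of the gene, with genes ordered by role and vertical lines between groups. Most rows share 1 pattern, with replicate 3 of batch A young high, replicate 2 of batch B young low within its batch and batch C old lowest. Arhgdib and H2-Ab1 depart from it in batch B young, and H2-Ab1 and H2-Eb1 depart in batches A and C. Plek, Mrc1 and Cd74 are not lowest throughout batch C old, and Cd52 and Cd14 are highest in another replicate of batch A young.

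Within groups the members varied together. In batch A young, replicate 3 was the highest library for 33 of 37 members, against 22.1% of all genes, and replicate 1 the lowest for 35, against 27.3%. The 4 libraries stood in the same order, replicate 3 above 4, 2 and 1, in 28 members, against 4.74% of all genes. The ratio of replicate 3 to replicate 1 was 2.29 in the median member and 0.994 in the median gene. In batch B young, replicate 1 lay above replicate 2 in 35 of 37 members (52.5% of all genes), with a median ratio of 2.15 against 1.02. In batch B old, replicate 1 lay above replicate 2 in 32 members (50.4% of all genes), with a median ratio of 1.41 against 1.00.

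The likeness of patterns was measured as Pearson's r, over the 11 libraries, between each gene and the median member, after the mean of each group had been taken off the log2 CPM. These correlations share libraries and depth and are descriptions. Of the 36 members tested, 24 had r over 0.9 (66.7%), against 1.16% of all 16132 genes, although the members themselves make up the profile. C1qc stood highest at 0.997, followed by Laptm5 at 0.996 and C1qb at 0.993. H2-Ab1 (-0.29), Arhgdib (0.073) and H2-Eb1 (0.158) stood lowest. Cd74 stood at 0.743 at a mean of 1.02 CPM.

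Genes outside the list shared this pattern. Among 10651 other genes with a mean of at least 5 CPM, 127 (1.19%) had r over 0.9. The most alike were Ucp2 (0.990), C3ar1, the receptor for complement C3a (0.987), Cd84 (0.987), Stab1, a scavenger receptor (0.986), Inpp5d, a lipid phosphatase of blood cells (0.986), Arrb2 (0.985), Hk3 (0.980), Fcrls (0.980), BC005537 (0.979) and Man2b1, a lysosomal mannosidase (0.978). Stab1 had 118, 191, 340 and 238 CPM in batch A young, 106 and 29.9 CPM in batch B young, 87.9 and 62.7 CPM in batch B old, and 35.8, 44.2 and 38.4 CPM in batch C old. As in most members, replicate 3 was highest in batch A young and replicate 2 lowest in batch B. In BC005537 the differences were smaller, with 342.5 CPM in the highest library and 169.8 CPM in the lowest.

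The members did not keep fixed proportions between batches. The ratio of Lyz2 to Csf1r was 1.58 to 2.27 in batch A young, 3.71 and 6.70 in batch B young, 5.72 and 7.29 in batch B old, and 3.62 to 4.21 in batch C old. Batch A young lay below all other libraries in this ratio. The ratio of Mrc1 to Csf1r was 0.497 to 1.10 in batches A and B and 1.70 to 2.13 in batch C old, and that of Ptprc to Csf1r was 0.0679 to 0.0978 in batch A young and 0.171 to 0.305 elsewhere. H2-Ab1 stood at 0.0456 to 0.228 times Csf1r in batches A and B and at 0.747 to 0.799 times in batch C old. As a share of the summed CPM of the members, Lyz2 took 19 ± 2.10% in batch A young (SD, n = 4), 28.6 ± 4.31% in batch B young (n = 2), 30.8 ± 0.0389% in batch B old (n = 2) and 22.4 ± 0.337% in batch C old (n = 3). The share of Mrc1 was 5.58 ± 0.786%, 4.32 ± 1.25%, 4.24 ± 0.616% and 10.9 ± 0.430% in the same order. Arhgdib took 2.10 ± 0.593% in batch A young and 7.53 ± 0.454% in batch C old.

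**Figure D4:**
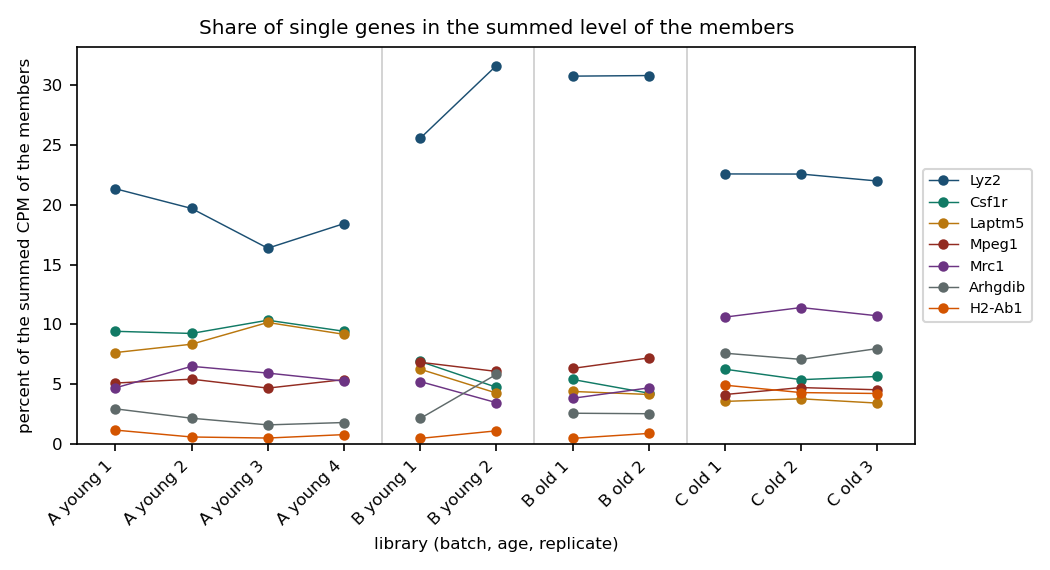
Percent of the summed CPM of the members taken by each of 7 genes in each library, with points joined within a group. Lyz2 takes 16.4% to 21.3% in batch A young and 25.6% to 31.7% in batch B, and Mrc1, Arhgdib and H2-Ab1 take larger shares in batch C old than in the other groups.

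A second list of 21 macrophage and monocyte genes gave a similar order of the groups. It summed to 230 to 453 CPM in batch A young, 133 to 264 CPM in batch B young, 254 to 335 CPM in batch B old and 94.5 to 106 CPM in batch C old. Of 19 genes tested, 0 passed with age by edgeR. An unadjusted p-value under 0.05 was found for 7, against 16.1% of all genes. DESeq2 called 2 higher and limma-trend 0, where 230 and 111 of 16132 genes were. By edgeR, 4 were lower and 1 higher in batch B than in batch A young, where 8.71% and 9.39% of all genes were. In batch C, 17 were lower and 0 higher than in batch B old, where 32.6% and 32.1% of all genes were. Itgam (CD11b), a subunit of the complement receptor on myeloid cells, had 35.2 to 80.7 CPM in batch A young, 11.8 and 38.7 CPM in batch B young, 30.7 and 45.1 CPM in batch B old, and 7.83 to 8.63 CPM in batch C old. Ctss, a lysosomal protease, fell to 2.76 to 4.97 CPM in batch C old from 38.9 and 52.9 CPM in batch B old. Cx3cr1, the fractalkine receptor, spanned 32.6 to 45.9 CPM over all libraries.

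Most defining genes of neutrophils and lymphocytes were at or near 0. The 7 neutrophil genes in the table summed to at most 1.89 CPM in any library, and S100a8, S100a9, Ly6g, Elane and Mpo had at most 3 counts in each. The 9 B cell genes summed to at most 1.02 CPM and the 7 genes of T and NK cells to at most 0.668 CPM, with Lck the highest of these. The 5 dendritic cell genes summed to 2.25 to 4.51 CPM, most of it Zbtb46 with 1.72 to 2.76 CPM. Globin genes had 0 counts in batches A and C and were detected in batch B, where Hbb-bs reached 1.48 CPM. The megakaryocyte list summed to 34.3 to 60.1 CPM, carried by Gp1bb with 24.8 to 30.8 CPM and Ppbp with 0.943 to 26.3 CPM. Unlike most members, Ppbp was highest within batch A young in replicate 1, at 25.3 CPM. Itga2b had 3.03 to 6.12 CPM, while Gp9 was at or near 0. The 6 endothelial genes summed to 1.71 to 9.88 CPM, most of it Tek.

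Osteoclasts, which resorb bone and come from the same lineage as macrophages, were covered by 10 genes. They summed to 157 to 207 CPM without an order by group, and Ctsk, which stromal cells also express, made up most of it with 111 to 171 CPM. Of the 7 tested, 2 were higher with age in batch B and 0 lower (edgeR), where 0.694% and 1.54% of all genes were. Mmp9, a gelatinase, had 0.208 and 0.272 CPM in batch B young, 9.23 and 3.00 CPM in batch B old, 0.165 to 0.507 CPM in batch A young and 0.262 to 0.508 CPM in batch C old. Acp5, the tartrate-resistant phosphatase, had 0.782 and 1.70 CPM in batch B young, against 6.13 and 3.07 CPM in batch B old. The fusion gene Dcstamp had at most 1.01 CPM, in replicate 1 of batch B old, and Calcr had 0 counts outside batch C. In the mast cell and basophil list, the basophil protease Mcpt8 had 7.47 and 4.54 CPM in batch B old and at most 1.88 CPM in all other libraries. The rest of that list was near 0 or absent, with Hdc at most 0.269 CPM and Cpa3 at most 0.0673 CPM, and 4 genes were not in the table. Mmp9, Acp5 and Mcpt8 were thus highest in the same 2 libraries in which Ms4a7 was highest, and the part of such cells in that result was not tested.

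The 11 stromal genes that define the labelled cell type summed to 38210 to 101100 CPM, against 279.5 to 2539 CPM for the members. Col1a1 and Col1a2 made up most of the stromal sum. The next highest, Cxcl12, had 589 to 2849 CPM, a level like that of the summed members, and not all 11 genes were abundant. The stromal sum was highest in batch A young, at 91560 to 101100 CPM. It was lower in batch B young, at 46190 to 76050 CPM, in batch B old, at 40560 to 43200 CPM, and in batch C old, at 38210 to 40360 CPM. With age in batch B, 1 of the 11 stromal genes was lower and 0 were higher by edgeR, where 1.54% and 0.694% of all genes were. An unadjusted p-value under 0.05 was found for 5, against 16.1% of all genes. DESeq2 called 3 lower, where 410 of 16132 genes were. The gene called by edgeR was Pdgfra, with 236 and 194 CPM in batch B young against 109 and 128 CPM in batch B old (log2 difference -0.86 ± 0.15, edgeR adjusted p = 0.0059). Between the young batches, 1 was higher and 2 were lower (edgeR), where 9.39% and 8.71% of all genes were. Of the same 11 genes, 5 were higher and 3 lower in batch C than in batch B old (edgeR), where 32.1% and 32.6% of all genes were. Pdgfra had 268 to 289 CPM in batch C old and 109 and 128 CPM in batch B old. The part of the stromal makeup in the differences of the members was not tested.

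**Figure D5:**
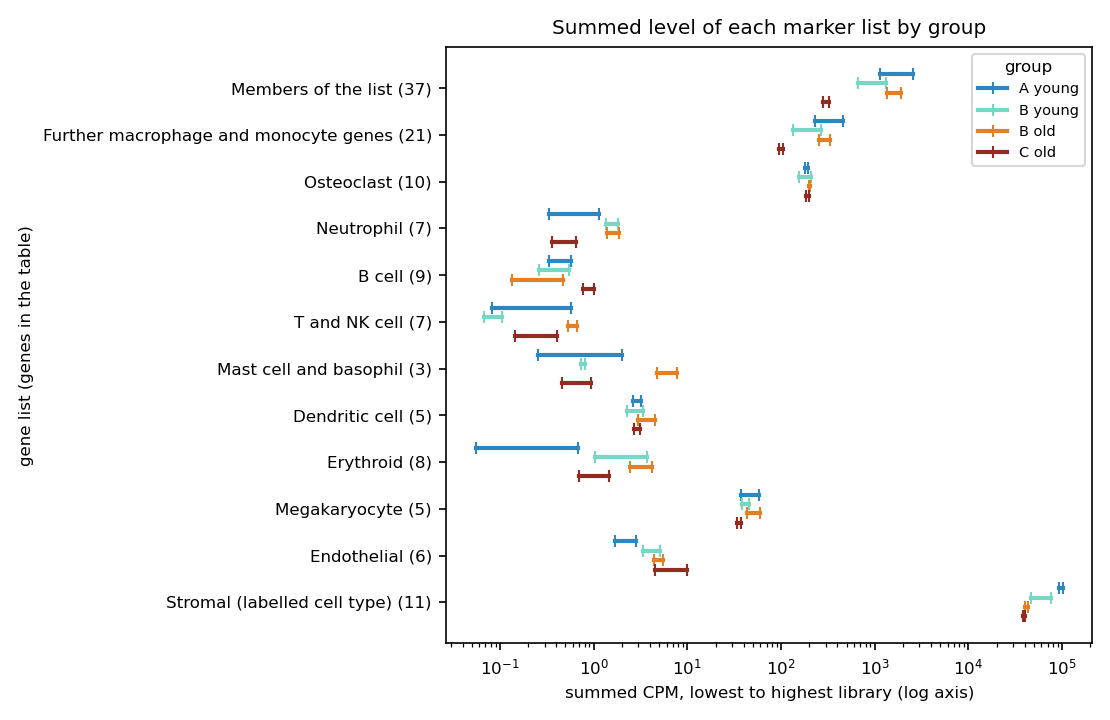
Lowest to highest summed CPM (log axis) of the members and of 11 other marker lists in each of the 4 groups. The members range from 279.5 to 2539 CPM and the further macrophage genes from 94.5 to 453 CPM, while the neutrophil, B cell and T and NK cell lists stay at or below 1.89 CPM and the stromal list spans 38210 to 101100 CPM.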

How the data were processed

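Raw counts were deposited by the authors as 1 table of whole numbers per Ensembl gene and library, without normalisation. Per the methods of the study, which were assumed to hold for these libraries, reads were processed with zUMIs 2.2.1, STAR 2.6.1a, samtools 1.9 and featureCounts of Rsubread 1.32.4 against GRCm38 with Ensembl annotation 91. Whether strand or molecular identifiers were used is not given in the sources used here. Symbols, lengths and coordinates (1-based) came from GENCODE M21, and 28143 of 28222 identifiers matched. Groups were taken from the titles in the labels, and 0 columns were left unused.

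The deposited counts entered edgeR 4.0.16 (R 4.3.3) and its quasi-likelihood test (filterByExpr with a minimum count of 5, TMM factors, Benjamini-Hochberg adjustment over all genes tested, threshold 0.05, two-sided). The age fit held all 11 libraries with batch as a covariate, and the batch fits held the 6 young or the 5 old libraries. CPM were taken over totals scaled with TMM, and a prior count of 2 was added for log2 CPM. Alternatives were limma-trend (limma 3.58.1), RLE factors, DESeq2 1.42.0, no filter, scaling by total counts, a replicate block, batch B alone, no batch term, union of exons, and leaving out each library. The scripts were tested on simulated data.

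All members were named. Of each other list, the up to 5 genes highest in mean CPM and defining genes at 0 could be named, as could the 10 other genes most alike in pattern with a mean of at least 5 CPM. Pdgfra (a marker of the sort), Dcstamp and a few defining genes near 0 counts were named with their values in view. Members and lists were chosen with earlier results of these data known. Some genes of the other lists are not reported here.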

Additional observations from a re-analysis of the deposited data

How the results depend on the processing

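Leaving out each library in turn gave 0 to 5 members higher with age (median 0.26 to 1.41), 0 to 27 lower in batch B than in batch A young (median -1.56 to -0.48), and 33 to 34 lower and 0 to 1 higher in batch C than in batch B old (median -2.82 to -2.31). With age, DESeq2 called 3 members higher, where 230 of 16132 genes were, and scaling by total counts 2, where 150 were. No filter on low counts gave 19, where 508 of 28222 genes were higher, and no batch term 0, where 1371 of 14689 were. Between the young batches, DESeq2 called 7 lower, where 1471 of 14840 genes were, and no filter 26, where 1725 of 23934 were. Between the old batches, DESeq2 called 0 higher, where 4200 of 15651 genes were. The cause of these changes was not tested. Without a batch term the median of the members with age was -0.95, and the differences were negative for Lyz2 (-0.39), Cd53 (-0.61), Csf1r (-1.71), Cybb (-1.15), C1qa (-1.07), C1qb (-1.04) and C1qc (-1.31). Leaving out 1 library at a time also turned the sign of Csf1r (-0.21 to 1.35) and Cybb (-0.21 to 0.81) with age, of Arhgdib (-0.33 to 0.12), Lyz2 (-0.67 to 0.038) and Ptprc (-0.86 to 0.20) between the young batches, and of H2-Eb1 (-0.20 to 1.10) between the old batches, none of which had passed. Scaling by total counts moved the calls over all genes from 112 higher and 248 lower to 150 and 185 with age, from 1393 and 1293 to 2004 and 1016 between the young batches, and from 5029 and 5104 to 6472 and 3825 between the old batches.

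Replicate numbers are shared between groups in the labels only. Deviations of same-numbered libraries of batch B young and old correlated at 0.0365, those of batch A young and batch B young at -0.111 and -0.0774, those of batch B old and batch C old at 0.0284 and -0.0055, and those of batch A young and batch B old at 0.135 and 0.133. Not every correlation passed the 0.1 set for pairing, and no pairing was assumed. With the replicate number as a replicate block, 1 member was higher with age (median 0.70), 7 were lower between the young batches (median -0.54), and 34 were lower and 1 higher between the old batches (median -2.58). With 2 libraries in each arm of batch B, precision was limited by replicates, and for members under 1 CPM by depth.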
